A study of Rattus norvegicus with 6 samples.

Results

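The EGF receptor (ERBB) family and its ligands were measured in colon RNA of 3 S.LEW congenic rats, here C1 to C3, and 3 rats of the S strain, here S1 to S3, with 1 array per rat. The 10 members are the receptors Egfr, Erbb2, Erbb3 and Erbb4 and the ligands Egf, Tgfa, Areg, Ereg, Btc and Hbegf, and each was found by matching the accession of every non-control probe to RefSeq, which gave 14 probes for these 10 of the 15168 genes named on the array. S is the Dahl salt-sensitive (SS/Jr) strain, an inbred hypertensive rat, and S.LEW(10)x12x2x3x5 is a congenic strain in which a short piece of Lewis chromosome 10 that holds Rffl was placed on the S background. All the rats were males kept on a low-salt diet, received the colon carcinogen azoxymethane (AOM) in 2 intraperitoneal injections of 15 mg/kg a week apart, the first at 6 weeks of age, and were 30 weeks old when the colon was taken. Each cage held an S rat and a congenic rat after the injections, but the labels do not tell which rats of the arrays shared a cage. No rat without AOM was analysed here. The labels call the samples colon and also name AOM-induced tumors, and how much tumor each sample held is not given in the sources used here.

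The ERBB receptors are tyrosine kinases of the cell surface that pair with each other when a ligand binds. EGFR binds EGF, TGF-alpha, amphiregulin (Areg), epiregulin (Ereg), betacellulin (Btc) and HB-EGF. ERBB2 has no known ligand of its own and acts as the partner of the others, while ERBB3 binds neuregulins and signals through its partner because its own kinase is weak. Most of the ligands are made as membrane proteins and are cut loose by proteases. Active receptors feed the Ras-MAPK and PI3K cascades, which drive growth and survival of the colonic epithelium, and they are then taken up into endosomes to be recycled or degraded. The E3 ubiquitin ligase encoded by Rffl is associated with endosomes.

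The values are the deposited log2 signals, which the authors quantile-normalized so that the arrays share a distribution. A fold change is given as log2 of S.LEW minus S. Before normalization, the median spot intensity of the congenic rats was 273 (C1), 214 (C2) and 291 (C3) and that of the S rats 594 (S1), 219 (S2) and 445 (S3), and from 73.8% (C2) to 87.6% (S3) of the spots were well above background, as called by the scanner software. No spot was saturated. The S rats were not alike. Across all 23997 probes of the deposited table, the array of S2 correlated with those of the congenic rats at 0.967 to 0.976 (Pearson's r across probes, which are not independent replicates), and with S1 at 0.900 and S3 at 0.937, while S1 and S3 correlated with each other at 0.980. C1 and the 3 S rats were read in 1 scan and C2 with C3 in another, taken here as slide 1 and slide 2, so that a value within slide 1 compares C1 alone with the S rats. With 3 rats per strain, 0.10 is the smallest p of an exact permutation test. The precision of every value is limited by how few arrays there are.

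Among the members, Erbb2 and Erbb3 were higher on average in the congenic rats and Egfr lower, but no member passed the test. At the brightest probe of each gene, 6 of the 8 members in the deposited table had a fold change above 0 and 2 had one below 0, with a median of 0.35 against 0.03 over all 12418 genes. That median was 0.16 both without S1 and with normexp background correction. Limma gave 0 of 8 members at a Benjamini-Hochberg (BH) adjusted p under 0.05, as it did for 0 of 12418 genes (0%). At an unadjusted p under 0.05 there were 0 of 8 members and 1798 of 12418 genes (14.5%) with limma, and by the methods' t-test 0 members and 1498 of 12418 genes. The cut-offs of the study, 2-fold or more at an unadjusted p under 0.05, were applied here to the p of limma and not to that of the methods' t-test. At these cut-offs 0 of 8 members were higher and 0 lower, where 3.79% of all genes were higher and 2.62% lower, and with the p of the methods' t-test it was also 0 members. The strains did not overlap at the brightest probe for 2 members, Erbb2 and Egf, both higher in S.LEW, and for 0 members lower, where 14.2% of all genes were higher and 5.01% lower without overlap. In whole colon, fewer cells of a type and less RNA per cell cannot be told apart.

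**Figure D1:**
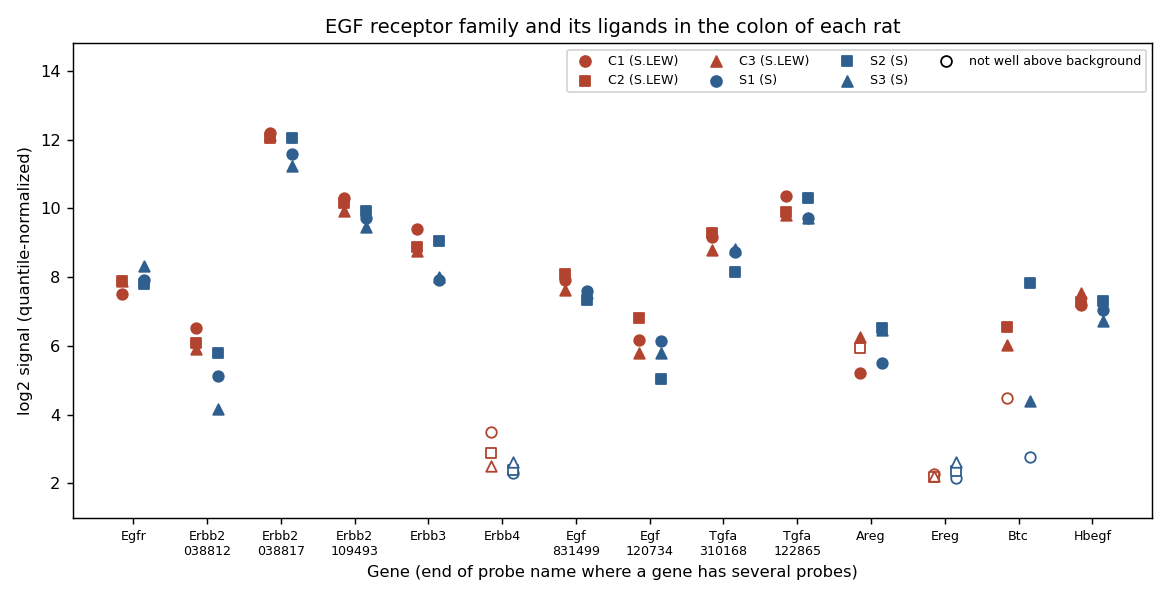
Log2 signal of each of the 14 probes of the family in each rat, with S.LEW rats in red and S rats in blue, and open symbols where the probe was not well above background. Erbb4 and Ereg, drawn from quantile-normalized scanner signals, are open in all 6 rats, and S1 and S3 are the lowest rats at each Erbb2 probe.

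The receptor Erbb2 was read by 3 probes, all well above background on all 6 arrays. At the brightest probe (A_64_P038817) the log2 signal was 12.20 in C1, 12.05 in C2, 12.15 in C3, 11.58 in S1, 12.05 in S2 and 11.24 in S3. The congenic rats lay close together, S2 was just under the lowest of them, and S1 and S3 were lower. The means were 12.13 ± 0.08 (SD, n = 3) in S.LEW and 11.62 ± 0.40 (SD, n = 3) in S. The fold change was 0.51 (standard error 0.24, 95% confidence interval -0.08 to 1.1), with an adjusted p of 0.410 from limma and an exact two-sided permutation p of 0.10, the smallest possible.

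The other Erbb2 probes had the same order of strains. At A_64_P109493 the log2 signal was 10.31, 10.15 and 9.94 in C1, C2 and C3 and 9.72, 9.92 and 9.46 in S1, S2 and S3, a fold change of 0.43 (standard error 0.21, limma adjusted p = 0.410). At the dimmest probe, A_64_P038812, it was 6.52, 6.08 and 5.89 in C1, C2 and C3 and 5.11, 5.78 and 4.16 in S1, S2 and S3, a fold change of 1.15 (standard error 0.43, limma adjusted p = 0.360). This probe was the only 1 of the 12 tested probes of the family that met the cut-offs of the study (unadjusted p = 0.034 from limma), where 3.23% of all 23997 probes were higher at these cut-offs. The methods' t-test gave 0 of 12 probes at an unadjusted p under 0.05. With normexp background correction the fold change of the dimmest probe was 0.44, below the cut-off and near the 0.49 and 0.43 of the brighter probes. That correction adds an offset of 50 to the intensities, which by itself shrinks the fold change of a dim probe. It therefore cannot tell whether the larger size came from background. None of the 3 probes passed the BH threshold.

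The Erbb2 differences depended on which S rat was left out. Without S2, the adjusted p from limma was 0.038 at the brightest probe (fold change 0.72), 0.088 at A_64_P109493 (0.54) and 0.034 at the dimmest probe (1.53). Over all the alternatives the adjusted p ran up to 0.865 for each of these probes. Without S3 the fold change was 0.32 at the brightest probe and 0.72 at the dimmest, the smallest of those with a rat left out, and 0 members passed. Without S2, however, 14.1% of all genes passed as higher and 11.6% as lower, and 2 of 8 members passed, Erbb2 and Erbb3, both higher. Within slide 1 the fold changes were 0.58, 0.61 and 1.5 in the order of the probes given above. They compare 1 congenic rat with the S rats and are given with no test.

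Erbb3, the neuregulin receptor, had a log2 signal of 9.40 in C1, 8.87 in C2, 8.77 in C3, 7.91 in S1, 9.04 in S2 and 8.00 in S3. The strains overlapped, because S2 lay above C2 and C3, while S1 and S3 were the lowest rats. The means were 9.01 ± 0.34 (SD, n = 3) in S.LEW and 8.32 ± 0.63 (SD, n = 3) in S, a fold change of 0.70 (standard error 0.36, 95% confidence interval -0.17 to 1.57, adjusted p = 0.433 from limma). Its exact two-sided permutation p was 0.30. Without S2 the fold change was 1.06 with an adjusted p of 0.033 from limma. Its adjusted p ran up to 0.865 over the alternatives, and it passed the threshold in none but that without S2. Within slide 1 it was 1.09.

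Egfr, the receptor of the ligands encoded by Egf, Tgfa, Areg, Ereg, Btc and Hbegf, was lower on average in the congenic rats. The log2 signal of this gene was 7.50 in C1, 7.89 in C2, 7.89 in C3, 7.93 in S1, 7.79 in S2 and 8.33 in S3. The strains overlapped, with C1 the lowest rat and S3 the highest. Its fold change was -0.26 (standard error 0.23, 95% confidence interval -0.80 to 0.29, adjusted p = 0.594 from limma), and leaving out a rat moved it between -0.37 without S2 and -0.098 without S3. It was -0.12 without C1, -0.52 within slide 1 and -0.17 with normexp background correction. Erbb4, the remaining receptor, did not reach well above background on any of the arrays. Its probe was not in the deposited table, and its log2 signal in the quantile-normalized scanner values ran from 2.29 to 3.48, so no fold change is given.

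**Figure D2:**
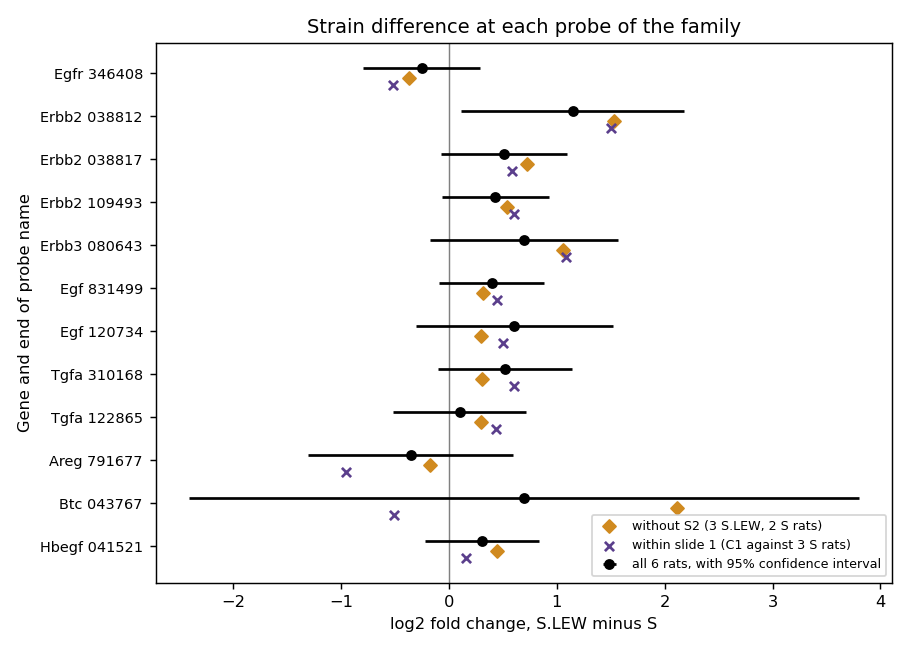
Log2 fold change (S.LEW minus S) at the 12 tested probes of the family, with the 95% confidence interval over all 6 rats (black), the value without S2 (orange) and the value within slide 1 (purple). The interval of the dimmest Erbb2 probe, from 0.11 to 2.18, is the only 1 of these that lies above 0.

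Of the ligands, Egf was read by a probe printed on 10 spots and by a probe on a single spot. At the 10-spot probe, A_42_P831499, the log2 signal was 7.93 in C1, 8.09 in C2, 7.61 in C3, 7.60 in S1, 7.32 in S2 and 7.53 in S3. The congenic rats lay above the S rats, though C3 was barely above S1. This gave a fold change of 0.39 (standard error 0.20, limma adjusted p = 0.431, exact permutation p = 0.10), and the SD of log2 intensity among the 10 spots of an array ran from 0.03 to 0.09, below the SD between rats. With normexp background correction it was 0.29. At the single-spot probe the fold change was 0.61 (standard error 0.38, limma adjusted p = 0.489) and the strains overlapped. That value was 0.29 with normexp background correction, 0.32 without C2 and 0.30 without S2.

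Tgfa, which encodes the TGF-alpha made by colonic epithelium, was read by 2 probes. At the brighter probe, A_64_P122865, the log2 signal was 10.35 in C1, 9.89 in C2, 9.81 in C3, 9.72 in S1, 10.31 in S2 and 9.72 in S3. C1 and S2 were high and the other rats lay below them, so the strains overlapped. That gave a fold change of 0.10 (standard error 0.26, limma adjusted p = 0.862), and it turned to -0.069 without C1, was 0.00053 without S1 and 0.00094 without S3, and was 0.43 within slide 1. At A_44_P310168 the log2 signal was 9.17, 9.29 and 8.79 in C1, C2 and C3 and 8.74, 8.14 and 8.81 in S1, S2 and S3, a fold change of 0.52 (standard error 0.26, limma adjusted p = 0.420) that was 0.37 with normexp background correction. Here S2 was the lowest rat, whereas at the brighter probe it was the second highest. Without S2 the fold changes were 0.29 at the brighter probe and 0.31 at the other, so the difference in size between the probes rested on that rat.

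Hbegf, the heparin-binding ligand, had a log2 signal of 7.18 in C1, 7.27 in C2, 7.54 in C3, 7.05 in S1, 7.29 in S2 and 6.73 in S3. The strains overlapped, and the fold change was 0.31 (standard error 0.22, limma adjusted p = 0.525). It was 0.16 without S3, 0.20 without C3, 0.16 within slide 1 and 0.21 with normexp background correction. Areg, which encodes amphiregulin, was dim. The log2 signal of this gene was 5.20 in C1, 5.93 in C2, 6.26 in C3, 5.48 in S1, 6.51 in S2 and 6.47 in S3, with C2 not well above background. The fold change was -0.36 (standard error 0.39, limma adjusted p = 0.667) and the strains overlapped. It depended on single rats, from -0.059 without C1 to -0.69 without S1, and was -0.95 within slide 1, where C1 alone stands for S.LEW. With normexp background correction it was -0.20. The SD among its 10 spots ran from 0.08 (S3) to 0.30 (C2), and 9 of the 10 spots on C1 and 3 on C2 were well above background.

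Btc, which encodes betacellulin, varied most between rats of a strain. The log2 signal of this gene was 4.48 in C1, 6.55 in C2, 6.03 in C3, 2.75 in S1, 7.83 in S2 and 4.40 in S3. It was well above background on 2 of 3 arrays in each strain, not in C1 and S1, and S2 was the highest rat and S1 the lowest. Its fold change was 0.70 (standard error 1.3, 95% confidence interval -2.41 to 3.80, adjusted p = 0.802 from limma). It was 2.11 without S2, 1.30 without C1, 0.40 without S3, 0.26 without C2, -0.43 without S1, -0.51 within slide 1 and 0.029 with normexp background correction, so its direction rested on single rats. Ereg did not reach well above background on any of the arrays, with a log2 signal of 2.17 to 2.61 in the scanner values, and no fold change is given.

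By position, Erbb2 lies on chromosome 10, as Rffl does, with 243 protein-coding genes between them in RefSeq (GRCr8). Areg, Ereg and Btc are neighbors on chromosome 14, with 0 protein-coding genes between Areg and Ereg and 0 between Areg and Btc.

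Promoter entries were found in RefSeq (GRCr8) for 8 of the 10 members, not for Erbb3 and Ereg. Erbb2 is printed because its 3 probes all had S.LEW above S, Areg because it is the tested ligand whose fold change was below 0 with all 6 rats, and Etv5 because it is the pathway gene with the lowest p. Capitals mark every match on either strand. The motifs searched were the GC box with the letters GGGCGG, the CCAAT box, the TATA box with the letters TATAAA and the cAMP response element with the letters TGACGTCA, and no marked matches overlap. The Erbb2 entry is chr10:83907351-83907650 (+ strand), that of Areg chr14:17265592-17265891 (- strand) and that of Etv5 chr11:92113013-92113312 (+ strand). The entries of Erbb2 and Etv5 begin from another transcript start than the gene's own start in the RefSeq gene table, so no distances to a start are given.
Erbb2: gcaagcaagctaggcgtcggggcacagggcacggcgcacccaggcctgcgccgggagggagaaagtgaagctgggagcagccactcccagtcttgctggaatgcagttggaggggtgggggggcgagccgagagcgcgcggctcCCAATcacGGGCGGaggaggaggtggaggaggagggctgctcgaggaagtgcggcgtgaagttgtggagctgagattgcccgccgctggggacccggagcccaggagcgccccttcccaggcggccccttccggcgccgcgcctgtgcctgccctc
Areg: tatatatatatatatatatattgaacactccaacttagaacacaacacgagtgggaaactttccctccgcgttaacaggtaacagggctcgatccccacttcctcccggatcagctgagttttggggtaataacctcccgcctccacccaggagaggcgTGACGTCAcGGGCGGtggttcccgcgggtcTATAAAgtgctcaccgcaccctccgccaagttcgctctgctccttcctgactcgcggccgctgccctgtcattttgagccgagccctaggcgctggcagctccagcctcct
Etv5: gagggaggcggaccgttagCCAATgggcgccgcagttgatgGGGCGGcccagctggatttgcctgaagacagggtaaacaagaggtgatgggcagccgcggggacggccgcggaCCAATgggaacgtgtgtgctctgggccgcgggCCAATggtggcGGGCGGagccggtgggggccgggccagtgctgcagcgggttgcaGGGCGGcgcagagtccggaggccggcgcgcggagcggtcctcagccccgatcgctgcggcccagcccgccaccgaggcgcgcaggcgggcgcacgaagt
The Erbb2 entry holds a CCAAT and a GC box, and that of Areg a cAMP response element, a GC box and a TATA box in that order. Of all 33469 promoter entries, 33.1% hold GGGCGG, 37.5% CCAAT, 14.2% TATAAA and 1.83% TGACGTCA. Among the 8 members with an entry, 6 hold GGGCGG (all but Egf and Hbegf), 2 CCAAT (Erbb2 and Hbegf), 1 TATAAA and 1 TGACGTCA (Areg in both cases). A match describes these letters only.

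The genes around the receptors were read from 6 lists of 85 genes, of which 73 were in the deposited table. Limma gave 0 of 73 at an adjusted p under 0.05, and 10 of 73 at an unadjusted p under 0.05, with 10 by the methods' t-test, beside 14.5% of all genes with limma and 1498 of 12418 by the methods' t-test. Without S2, 12 of 73 passed as higher and 5 as lower, beside the 14.1% and 11.6% of all genes given above, and leaving out any other rat gave 0. At the cut-offs of the study 5 genes were higher in S.LEW and 0 lower, beside the 3.79% and 2.62% of all genes given above. The 5 were Etv5, Cblc, Gab1, Rhbdf1 and Spry2. With normexp background correction 1 of these lists' genes was higher at the cut-offs, with the methods' t-test 3 and with the slide as a block 2. It was 3 without C1, 2 without C3, S1 or S3 and 6 without C2 or S2. The strains did not overlap for 6 genes higher and 9 lower, beside 14.2% and 5.01% of all genes.

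Etv5, a transcription factor induced by ERK, had the lowest p of the lists. Its log2 signal at the brightest probe was 10.68 in C1, 10.53 in C2, 10.90 in C3, 9.41 in S1, 9.56 in S2 and 8.70 in S3. All the congenic rats lay above all the S rats, S2 included. The fold change was 1.48 (standard error 0.27, limma adjusted p = 0.207) and 1.09 at its dimmer probe (standard error 0.25), and leaving out a rat moved the former between 1.22 and 1.65. Without S2 its adjusted p was 0.016 from limma, and over all the alternatives it ran up to 0.823. Among the 13 ERK-induced targets tested, 9 had a fold change above 0, with a median of 0.16. That median was 0.41 without S2, 0.34 without C3, 0.048 without C2, -0.071 without S1 and 0.10 with normexp background correction. Ccnd1, which encodes cyclin D1, had a fold change of 0.81 (standard error 0.22, limma adjusted p = 0.290), and Dusp5, an ERK phosphatase, one of -0.85 (standard error 0.17, limma adjusted p = 0.221), with strains apart in both. Fosl1 was outside the table, with 1 array (S3) well above background.

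Of the 14 feedback inhibitors tested, 6 had a fold change above 0, with a median of -0.07 that turned to 0.055 without S2 and was -0.17 without S3. Cblc, a ubiquitin ligase of the Cbl family, had a log2 signal of 9.74, 9.47 and 8.87 in C1, C2 and C3 and 7.85, 8.65 and 8.24 in S1, S2 and S3, a fold change of 1.11 (standard error 0.31, limma adjusted p = 0.294). Spry2, an inhibitor of receptor tyrosine kinase signaling, had a fold change of 1.01 (standard error 0.34, limma adjusted p = 0.343), with S1 and S3 at 6.36 and 6.12 and S2 at 7.36. With normexp background correction it was 0.66. Cblb, another ligase of the Cbl family, was singled out after its values were seen, as the gene of the list with the fold change farthest below 0. It was at 9.74, 9.97 and 9.79 in C1, C2 and C3 and at 12.33, 9.85 and 11.77 in S1, S2 and S3, so S1 and S3 were high and the strains overlapped. Its fold change was -1.48 (standard error 0.61, limma adjusted p = 0.385) and depended on S2. Without that rat it was -2.21, with an adjusted p of 0.0055 from limma, where 11.6% of all genes passed as lower. S2 was the only S rat within the range of the congenic rats, so the low p followed in part from leaving it out. Socs5, a suppressor of cytokine signaling, had a fold change of -0.77 (standard error 0.26, limma adjusted p = 0.339).

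In the adaptors and the Ras-MAPK and PI3K cascade, 11 of 22 tested genes had a fold change above 0 and 11 below. Their median of 0.02 ran from -0.033 without C3 to 0.11 without C2, and it was -0.080 within slide 1. Gab1, a docking protein for ERBB receptors, had a fold change of 1.07 (standard error 0.35, limma adjusted p = 0.334, fold change 0.50 with normexp background correction) and Grb2, the adaptor to Ras, one of -0.89 (standard error 0.36, limma adjusted p = 0.381). At this probe Grb2 was at 12.82 in S1 and 12.60 in S3 and at 11.32 to 11.48 in the other rats. At its dimmer probe the strains overlapped, with a fold change of -0.54 (standard error 0.30). Stat3 had one of -0.45 (standard error 0.19, limma adjusted p = 0.383).

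Among the 6 tested genes of ligand shedding, 2 had a fold change above 0, with a median of -0.27 that was -0.18 without S1 or without S2. Rhbdf1, an inactive rhomboid protein that acts with the shedding protease ADAM17, had a log2 signal of 10.73, 10.65 and 10.95 in C1, C2 and C3 and 9.85, 10.07 and 9.35 in S1, S2 and S3, so the strains did not overlap. Its fold change was 1.02 (standard error 0.24, limma adjusted p = 0.267). Adam9 had a fold change of -0.49 (standard error 0.25) and Bace1 one of 0.61 (standard error 0.41). Adam9 was at -0.25 without S2, and Bace1 ran from 0.36 without C3 to 1.01 without S2 and was 0.24 with normexp background correction. Of the other ERBB ligands, the neuregulins Nrg4, Nrg1 and Nrg2 had fold changes of 0.57, -0.39 and -0.23, none at an unadjusted p under 0.05. These values depended on single rats, and those of Nrg4 and Nrg1 were smaller in size with normexp, whose offset shrinks the fold changes of dim probes. Nrg4 was at 0.92 without S2, where it passed the threshold, at 0.34 without S1 and at 0.18 with normexp. Nrg1 ran from -0.65 without C3 to -0.17 without C2 and was -0.14 with normexp, and Nrg2 turned to 0.21 without S3.

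In receptor endocytosis and recycling, 10 of 15 tested genes had a fold change above 0, with a median of 0.14 and 0 genes at an unadjusted p under 0.05 with limma, against 1 by the methods' t-test. The fold change was 0.64 for Ehd1 (0.27 at its dimmer probe), -0.37 for Tsg101 and 0.54 for Rab4a. The median was 0.058 without S3, 0.21 without S2, 0.067 within slide 1 and 0.077 with normexp background correction. Rab4a was at 0.35 without S1 and 0.82 without S2. Without S2, 4 of the 15 passed the threshold, all higher, beside 14.1% of all genes higher and 11.6% lower. They were Ehd1, Rab4a, Rab11a and Epn2, with adjusted p of 0.016, 0.036, 0.031 and 0.024 from limma. At the dimmer probes of Ehd1 and Epn2 the adjusted p without S2 was 0.097 and 0.051 from limma. Rffl, the gene of the congenic segment, had 2 probes with a fold change of 0.21 each (standard error 0.18, limma adjusted p = 0.595 and 0.596). At the brighter probe it was 0.099 without C1 and 0.42 within slide 1, and at the dimmer probe it was 0.32 without S2.

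**Figure D3:**
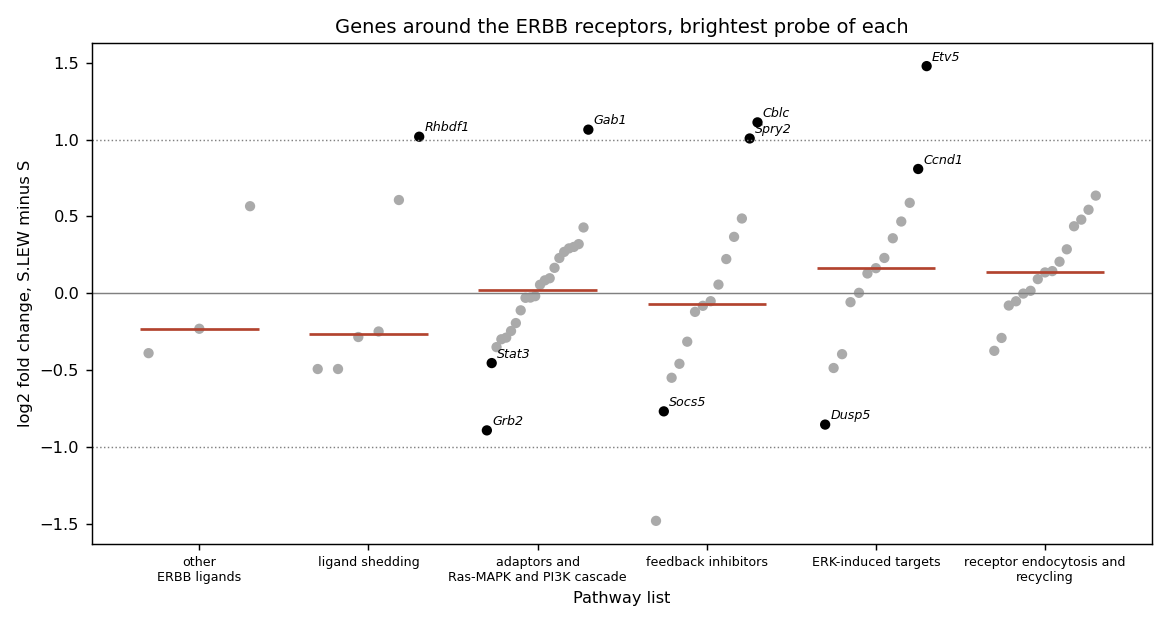
Log2 fold change (S.LEW minus S) of the 73 tested pathway genes at the brightest probe of each, by list, with the list's median as a red bar and dotted lines at 2-fold. Named genes in black had an unadjusted p under 0.05 with limma, and Etv5 lies highest at 1.48.

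Erbb3, Btc and Erbb2 were the 3 members with the largest fold changes at the brightest probe with all 6 rats. That of Btc turned to -0.43 without S1 and was -0.51 within slide 1, so its place rested on single rats. Each gene was centred on its own mean over the 6 arrays. The genes most like these 3 were then found by the root mean square difference of log2 values. For Erbb2 they were Insr (0.04), Akt1s1 (0.04) and Npepl1 (0.05), with fold changes of 0.47, 0.53 and 0.46. For Erbb3 they were Lzts3 (0.08), Or6x1 (0.10) and Tjp1 (0.10), with 0.66, 0.57 and 0.55. For Btc, whose values were widest, they were Fhl1 (0.57), Svs6 (0.58) and Flnc (0.59), with 0.73, -0.25 and 0.77, so Svs6 had the other direction. These fold changes come from the same 6 values that the match used.

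Markers of the cell types of the colon also differed between the rats. The colon epithelium markers, 11 of 13 listed genes tested, had a median fold change of 0.81. Of these, 10 were above 0, and Lgr5 was at -0.27, though at 0.56 within slide 1. Beside 14.2% of all genes higher and 5.01% lower without overlap, the strains did not overlap for 6 of these markers, all higher in S.LEW. Their median was 0.63 without S1 and 1.11 without C3, and no single gene of the list was the most abundant in all 6 rats. Their summed linear signal was 172999 in C1, 141133 in C2, 129048 in C3, 64694 in S1, 72789 in S2 and 60505 in S3. The share of that sum held by Car1, which encodes carbonic anhydrase 1, was 33.1% in C1, 22.9% in C2, 37.1% in C3, 21.0% in S1, 3.96% in S2 and 3.13% in S3. Without Car1 the sum was 115712 in C1, 108835 in C2, 81116 in C3, 51129 in S1, 69908 in S2 and 58608 in S3. The lymphoid markers, 6 of 12 tested, had a median of -2.25, and their summed signal was 1277 in C1, 1043 in C2, 1036 in C3, 46738 in S1, 1097 in S2 and 35599 in S3. S1 and S3 were thus far above the other rats, S2 included, and Cd3e, Cd79b, Ccr7 and Cd2 were well above background on these 2 arrays only. Cd3d, the most abundant of the list in all rats but S1 and S3, made up 80.1% of the sum in C1 and 5.03% in S1. The myeloid markers, 8 of 8 tested, had a median of -0.11 with 4 genes on each side of 0, and summed signals of 5434 in C1, 6797 in C2, 6938 in C3, 55464 in S1, 5012 in S2 and 41028 in S3. Lyz2, the most abundant, made up 93.5% of that sum in S1 and 91.9% in S3, so the gap rested mostly on this gene. Without Lyz2 the sum was 2163 in C1, 2706 in C2, 2251 in C3, 3616 in S1, 1862 in S2 and 3321 in S3. Cd163 and Mrc1 went the other way, with fold changes of 1.85 and 1.03. The median of the list turned to 0.14 without S3, 0.091 without C1 and 0.043 without S1 and was -0.59 without S2. It was 0.45 for the 7 genes well above background on all 6 arrays, 0.0029 with normexp background correction and -0.48 within slide 1, so it had no steady direction. The smooth muscle markers, 7 of 7 tested, had a median of 0.92 and summed signals of 583963 in C1, 606472 in C2, 656167 in C3, 189622 in S1, 682851 in S2 and 388886 in S3, lowest in S1 and S3, with Actg2 the most abundant. Their median was 0.31 without S1 and 1.5 without S2, and that of the lymphoid markers -3.85 without S2 and -1.69 without S1 or without S3. At the brightest probe, S1 and S3 were also the lowest rats for Erbb2, Erbb3, Tgfa, Btc and Hbegf, but not for Egfr, Egf or Areg. Of the pathway genes, Gab1, Spry2, Etv5, Rhbdf1 and Cblc were lowest in S1 and S3, and Grb2 and Cblb were highest there. How many of all genes had either order was not counted. The part of these cell types in the differences was not tested.

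The other lists had medians of 0.28 for fibroblast markers (7 tested, Col3a1 most abundant), -0.27 for endothelial markers (5, Kdr in all rats but S1), 0.86 for adipocyte markers (4, Fabp4 in all rats but C3), -1.39 for striated muscle markers (7, Ckm) and 0.56 for enteric neuron and glia markers (6, Uchl1). The fibroblast median ran from -0.0017 without S1 to 0.82 without S2, the enteric median from 0.32 without S1 to 0.98 without S2, and the endothelial median from -0.54 without C3 to -0.24 without C2. The striated muscle median was -0.31 for the 4 genes well above background on all 6 arrays, -1.0 with normexp background correction and -1.85 within slide 1. Its genes did not move together. Among the 4 genes well above background on all 6 arrays, Tnnt3 and Actn3 had fold changes of -1.39 and -0.77. Ckm and Acta1 were at 0.15 and 0.42. Myh1 and Mybpc1 were well above background in 3 of 3 S rats and 0 of 3 S.LEW rats. Their fold changes of -3.48 and -3.56 were thus set against background values and are not exact sizes. Every listed gene with a probe was well above background on at least 1 array. Limma gave 0 of the 61 tested genes of these 9 lists at an adjusted p under 0.05, and 21 at an unadjusted p under 0.05, with 12 by the methods' t-test, beside 14.5% of all genes with limma and 1498 of 12418 by the methods' t-test. Without S2, 13 of 61 passed as higher and 15 as lower, beside 14.1% and 11.6% of all genes. Without S1, 1 of 61 passed as higher and 2 as lower, beside 17 and 7 of 12418 genes.

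**Figure D4:**
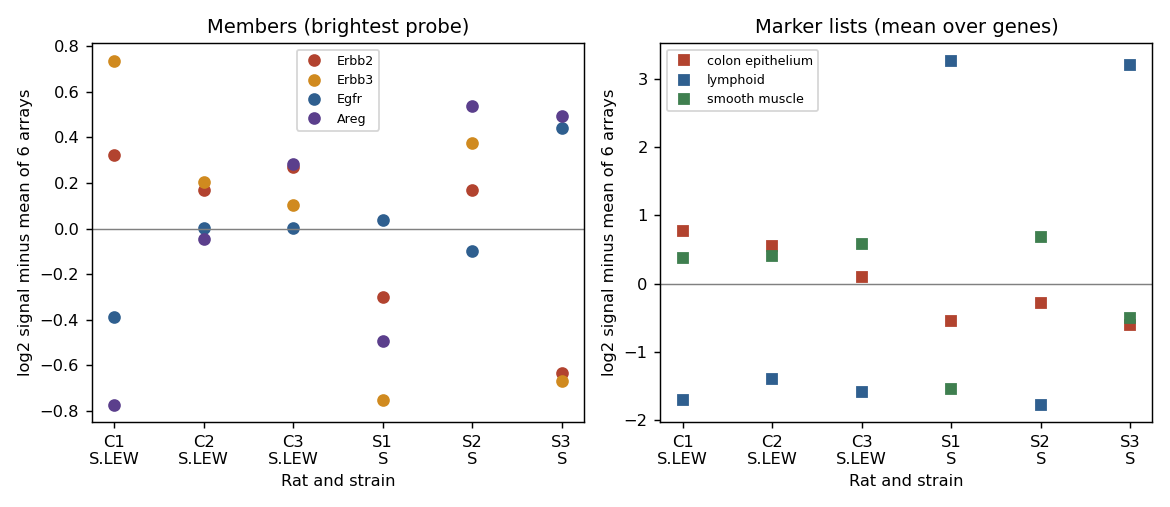
Left, log2 signal of Erbb2, Erbb3, Egfr and Areg in each rat minus the mean over 6 arrays. Right, the same averaged over the genes of 3 marker lists, where S1 and S3 stand at 3.27 and 3.20 for lymphoid markers and the other rats below 0.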

How the data were processed

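Per the labels and the methods of the study, colon RNA of each rat was labeled with Cy3 and hybridized to an Agilent Rat 4x44K array, and the images were read by the authors with Agilent Feature Extraction 11.0.1.1. The deposited scanner files hold a background-corrected intensity per spot, not normalized between arrays, and flags for spots well above background. The deposited table holds log2 values that the authors quantile-normalized, for 23997 probes. Of these, 23974 were well above background on at least 3 of 6 arrays as counted here, and r between the table and scanner values normalized here was at least 0.9999.

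On the deposited log2 values, S.LEW was compared with S by lmFit and eBayes of limma 3.58.1 (R 4.3.3) without covariates, with Benjamini-Hochberg adjustment over all 23997 probes and a threshold of 0.05. The code was tested on simulated data. Probes were named by unversioned accession through RefSeq genes of GRCr8, which matched 18005 of 30367 probes. The probe with the highest mean stands for a gene (2065 of 12418 genes had several). A probe was called well above background on an array where at least 0.5 of its spots were. Scanner spots flagged as outliers were left out and the spots of a probe averaged. Plots were drawn with matplotlib 3.10.9.

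Named were all members, for each pathway list the genes passing the test or otherwise up to 3 with the lowest p, those at the cut-offs of the study, Rffl, and the genes most like 3 members. Also named were Cblb, as the gene of its list farthest below 0, Rab11a and Epn2, which passed without S2, and Fosl1, which was outside the table. Marker genes beyond the most abundant of a list were named with their values known. They were Car1, Lgr5, Cd3e, Cd79b, Ccr7, Cd2, Cd163, Mrc1, Tnnt3, Actn3, Acta1, Myh1 and Mybpc1. The members and lists were chosen with earlier results of these data known. Tried as alternatives were scanner intensities with quantile or 75th percentile scaling, normexp correction (offset 50), other filters on dim probes, the methods' t-test, the replicate number or slide as a block, the mean of a gene's probes, and leaving out each rat. The offset of normexp shrinks the fold changes of dim probes, so smaller values and fewer calls with it are in part set by that choice.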

Additional observations from a re-analysis of the deposited data

How the results depend on the processing

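Of 169 alternative values for the 12 tested member probes, 163 kept the direction and the side of the threshold, 3 passed the threshold (without S2) and 3 turned. Those that turned were Tgfa A_64_P122865 at -0.069 without C1 (-0.069 to 0.29 with each rat left out) and Btc at -0.51 with the slide as a block and -0.43 without S1 (-0.43 to 2.11). Nrg2 turned to 0.21 without S3 (-0.52 to 0.21). The cause was not tested. The adjusted p of the brightest Erbb2 probe was 0.038 without S2. Leaving out a rat gave 0 to 2 member genes passing and 0 to 2 at the cut-offs of the study, 0 to 5553 probes passing, 477 to 2397 probes higher and 192 to 1725 lower at the cut-offs (776 and 562 with all the rats), and 2 to 6 pathway genes higher and 0 to 2 lower (5 and 0). The values 5553, 2397 and 1725 came without S2, which leaves fewer samples, and without S1 41 probes passed. With scaling to the 75th percentile 1 probe passed, and 692 were higher and 759 lower at the cut-offs. Probes higher numbered 359 with normexp and 515 with the methods' t-test, and probes lower 342 with the filter on all 6 arrays, 178 with the methods' t-test and 227 with the slide as a block. Pathway genes higher numbered 1 with normexp, 3 with the methods' t-test and 2 with the slide as a block. Pathway genes lower numbered 1 with the 75th percentile, with normexp, with the filter on all 6 arrays and with the slide as a block.

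The replicate number as a block gave 0 probes and 0 member genes passing, 0 members at the cut-offs, 794 probes higher and 744 lower, and 5 pathway genes higher and 1 lower. The labels tie rats of the strains by a number only, and whether a number stands for cage mates is not known. The correlations of deviations from the strain means between rats with the same number were -0.02, -0.13 and -0.06 over 23997 probes. Signal over background limits Erbb4, Ereg, Btc and Areg.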
